A study of Rattus norvegicus with 8 samples.

Results

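Transcripts of 7 genes that mark inhibitory neurons were followed in rat hippocampus: Gad1 and Gad2, which encode the GABA-synthesising enzymes, the neuropeptide genes Sst, Npy, Vip and Cck, and Pvalb, which encodes the calcium-binding protein parvalbumin. They were chosen by name, as 7 Ensembl gene identifiers among the 32623 in the deposited count matrix, and all 7 were found there and passed the filter on low counts. The names came with the list of identifiers, and no table used here pairs the identifiers with names independently. Hippocampal tissue was sequenced as RNA in 2 inbred strains at 32 weeks of age, the spontaneously hypertensive rat (SHR, 4 libraries), which develops high blood pressure, and its usual control strain, the Wistar-Kyoto rat (WKY, 4 libraries). The series text says that the rats had also been tested for behaviour, and the labels name no drug or transgene for either group. They do not say whether each library came from a separate animal, so p-values measure the spread between libraries, which may be technical. The study asked how the hippocampus of the hypertensive strain differs, and the strain comparison below addresses that for inhibitory neuron genes.

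Hippocampal interneurons release GABA, the main inhibitory transmitter of the adult brain, onto pyramidal cells, granule cells and each other. Glutamate decarboxylase makes GABA from glutamate in 2 forms, GAD67 from Gad1, found through the cytoplasm, and GAD65 from Gad2, concentrated at nerve terminals. Parvalbumin marks fast-spiking basket and axo-axonic cells, somatostatin marks dendrite-targeting cells, neuropeptide Y overlaps with somatostatin and marks neurogliaform cells, VIP marks cells that largely target other interneurons, and cholecystokinin marks a further class of basket cell. Cck transcripts are also present in hippocampal pyramidal cells, so Cck is less restricted to interneurons than the others. In bulk tissue, fewer cells of a type and less RNA per cell cannot be told apart.

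The libraries held 45048841 to 49560687 counts in SHR and 53045139 to 53699673 in WKY. These ranges did not overlap, so depth and strain cannot be told apart, although levels below are CPM (read counts as a share of the library total) after TMM scaling, which adjusts for library composition. The 7 genes had at least 389 counts in every library. A pair of libraries stood apart. WKY replicate 4 was singled out in earlier results of these data: 458 of 17029 genes differed between the strains without it (2.69%), against 6 of 16867 with it (0.0356%). SHR replicate 3 was singled out here, after its values were seen. It was the highest of the 8 libraries at 16.4% of tested genes, against 10.2 to 14.0% for the other 7. The strain differences, spreads, correlations and count ratios below are therefore also given without one or both of these libraries. Markers of other hippocampal cell types and of neighbouring tissue were not checked, because only the 7 identifiers had names, so the labelled tissue was not checked against its markers either.

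None of the 7 genes differed between the strains over all 8 libraries (edgeR quasi-likelihood test, adjusted p under 0.05 over 16867 genes; 0 of 7 called, against 0.0356% of all genes). The median log2 fold change of the 7, SHR minus WKY, was -0.098, and that of all tested genes was -0.004. Pvalb alone had an unadjusted p under 0.05 (1 of 7, against 12.1% of all genes), and DESeq2 and limma-voom each called 0 of 7 (against 1.98% and 0.0296% of all genes). No member had CPM ranges that separated the strains (0 of 7, against 6.72% of all genes). The values did differ between libraries of one strain: Vip varied 2.55-fold, Sst 2.60-fold and Cck 2.13-fold from the lowest to the highest of the 8 libraries, while Gad2 varied 1.38-fold.

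The promoters of Sst and Npy are shown because these peptide genes, which overlap in many interneurons, behaved differently from library to library: Sst was highest in SHR replicate 3 and Npy was not. Promoter sequences were available for 6 of the 7 genes (RefSeq, build GRCr8), all but Cck. The search covered 300 bases per gene, 250 before the annotated start of transcription and 50 after it. The printed stretches end 20 bases after the start. Both lie on the plus strand, Sst at chr11:90461296-90461565 and Npy at chr4:80211861-80212130. Capitals mark matches to the motifs searched.
Sst: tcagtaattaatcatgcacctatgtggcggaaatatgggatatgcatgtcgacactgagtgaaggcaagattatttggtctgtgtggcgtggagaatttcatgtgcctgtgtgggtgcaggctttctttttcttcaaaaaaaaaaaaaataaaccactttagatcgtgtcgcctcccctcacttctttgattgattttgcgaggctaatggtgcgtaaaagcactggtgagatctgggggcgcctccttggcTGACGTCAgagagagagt
Npy: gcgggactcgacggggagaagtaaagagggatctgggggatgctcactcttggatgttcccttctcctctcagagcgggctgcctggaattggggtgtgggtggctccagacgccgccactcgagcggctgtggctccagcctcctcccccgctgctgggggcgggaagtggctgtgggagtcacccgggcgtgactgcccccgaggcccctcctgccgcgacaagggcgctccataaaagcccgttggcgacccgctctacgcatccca

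The 3 motifs searched, on both strands, were the palindromic cyclic AMP response element TGACGTCA, its shorter form TGACG, which the palindrome contains on each strand, and the TATA-like TATAAA. TGACGTCA was found in the Sst window and in no other of the 6, and 1.83% of all 33469 promoters of this length hold it. In Sst it began at base 3 counted from the annotated start of transcription, so it lay after that annotated start. The annotated start was taken as given and not checked, so this does not show that the motif is transcribed. TGACG was found in Sst, Vip and Pvalb (3 of 6, against 21.2% of all promoters), and TATAAA in Gad1 and Vip (2 of 6, against 14.2%). The Npy and Gad2 windows held none of these letters. A match describes the sequence only.

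Neither GABA synthesis gene passed the test between the strains, and their means differed by less than 1 SD. Gad1 (ENSRNOG00000000007) was at 212, 194, 283 and 180 CPM in SHR replicates 1 to 4. In WKY replicates 1 to 4 Gad1 was at 216, 227, 170 and 236 CPM. SHR replicate 3 was the highest of the 8 libraries and WKY replicate 3 the lowest, and the strains overlapped widely. The Gad1 means were 217 ± 46 CPM in SHR against 212 ± 29 CPM in WKY (SD, n = 4 each). The log2 fold change, SHR minus WKY, came to 0.04 ± 0.15 (SE; edgeR, adjusted p = 0.953), with a 95% interval from 0.814-fold to 1.29-fold SHR over WKY. Leaving out SHR replicate 3 gave -0.11 ± 0.12 (edgeR, adjusted p = 0.722), and leaving out WKY replicate 4 gave 0.09 ± 0.16 (edgeR, adjusted p = 0.831). Over the 15 other settings and library sets tried, the adjusted p of Gad1 was 0.722 to 0.982.

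Gad2 (ENSRNOG00000018200) was the steadiest of the 7 across the 8 libraries. It was at 201, 194, 205 and 149 CPM in SHR replicates 1 to 4. Across WKY replicates 1 to 4 it was at 170, 204, 161 and 168 CPM. SHR replicate 4 was the lowest library, and SHR replicate 3 and WKY replicate 2 were level at the top. The Gad2 means were 187 ± 26 CPM in SHR against 176 ± 19 CPM in WKY (SD, n = 4 each), a log2 fold change of 0.09 ± 0.12 (SE; edgeR, adjusted p = 0.806). The 95% interval ran from 0.891-fold to 1.27-fold. Both library sets that left out SHR replicate 3 or WKY replicate 4 gave similar values, 0.06 ± 0.12 (edgeR, adjusted p = 0.872) and 0.07 ± 0.13 (edgeR, adjusted p = 0.839). The adjusted p of Gad2 was 0.614 to 0.911 over the 15.

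**Figure D1:**
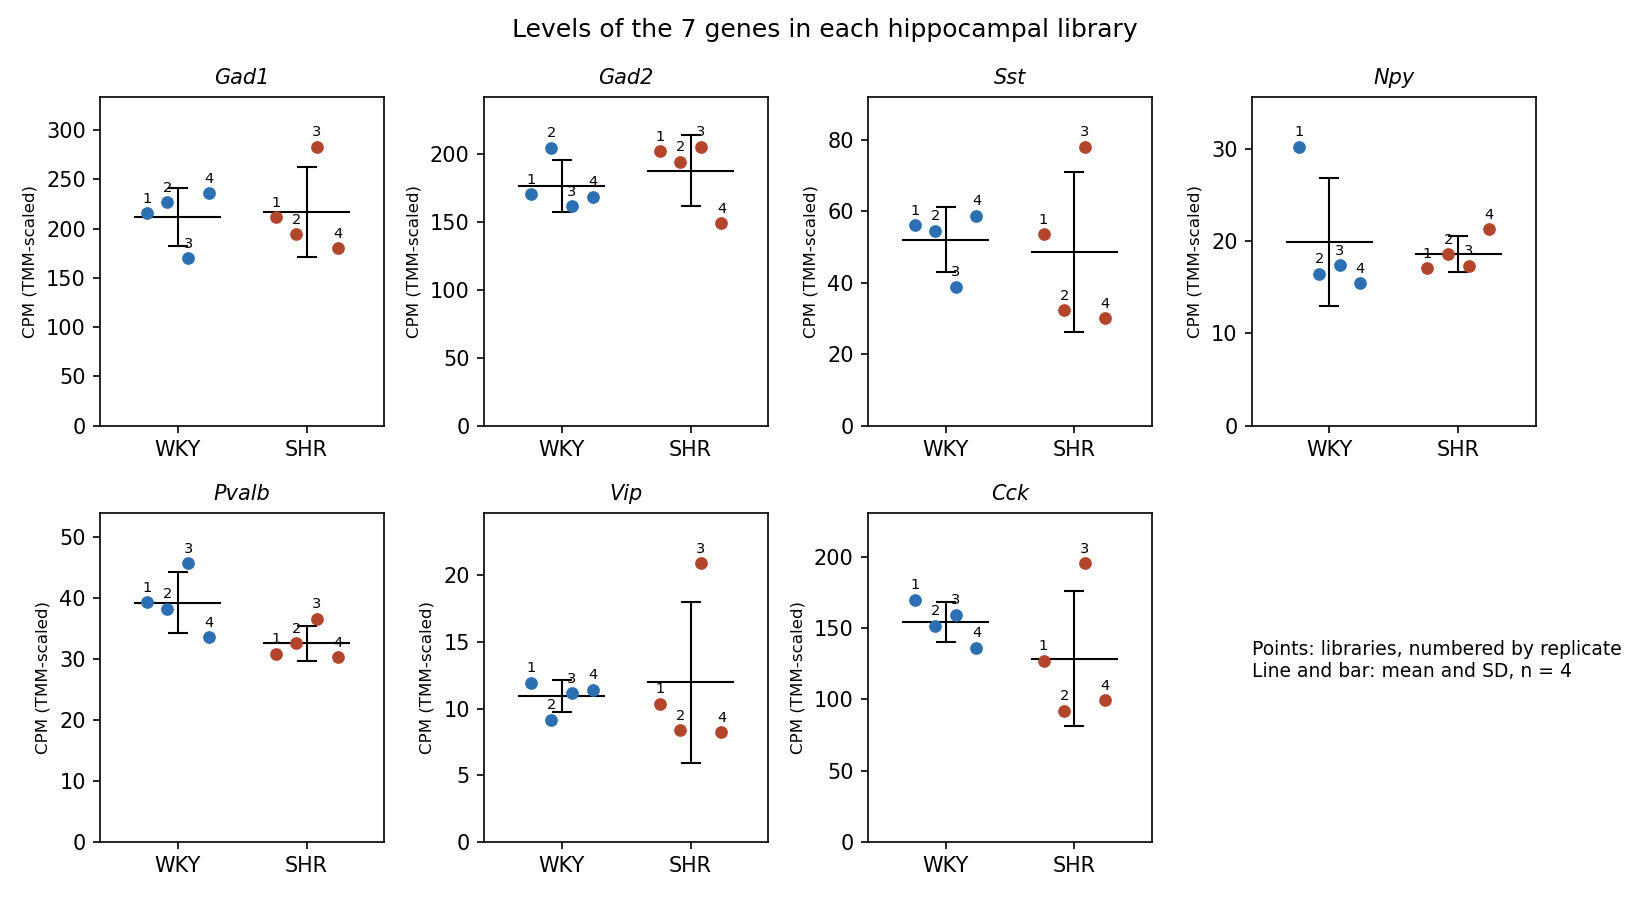
TMM-scaled CPM (vertical axis, from 0) of each of the 7 genes in the WKY (blue) and SHR (red) libraries, with points numbered by replicate and a line and bar for the mean and SD of 4 libraries. SHR replicate 3 is the top point for Gad1, Gad2, Sst, Vip and Cck, and the strains overlap for all 7 genes.

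Among the peptide genes, Sst (ENSRNOG00000001837) varied most across the SHR libraries on the log2 scale. It was at 53.6, 32.2, 78.0 and 30.0 CPM in SHR replicates 1 to 4. In WKY replicates 1 to 4 it was at 56.1, 54.5, 38.8 and 58.8 CPM. SHR replicates 2 and 4 lay below every WKY library and SHR replicate 3 above every one, so the SHR libraries enclosed the WKY range. The Sst means were 48.5 ± 22.4 CPM in SHR against 52.0 ± 9.0 CPM in WKY (SD, n = 4 each), a log2 fold change of -0.10 ± 0.28 (SE; edgeR, adjusted p = 0.920). Its 95% interval, 0.607-fold to 1.43-fold, allows differences of either sign. The SHR mean of Sst without replicate 3 was 38.6 ± 13.02 CPM (SD, n = 3), and the log2 fold change fitted was -0.42 ± 0.22 (edgeR, adjusted p = 0.418). Leaving out WKY replicate 4 in its place gave -0.04 ± 0.30 (edgeR, adjusted p = 0.970), and over the 15 the adjusted p was 0.418 to 0.979.

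Vip (ENSRNOG00000018808) showed the largest excess in a single library. It was at 10.4, 8.37, 20.9 and 8.21 CPM in SHR replicates 1 to 4. Across WKY replicates 1 to 4 it was at 11.9, 9.17, 11.2 and 11.4 CPM. SHR replicate 3 held 2.02 times as much as the next highest SHR library, and the other 7 libraries lay between 8.21 and 11.9 CPM. The Vip means were 11.96 ± 6.05 CPM in SHR against 10.9 ± 1.2 CPM in WKY (SD, n = 4 each), a log2 fold change of 0.13 ± 0.28 (SE; edgeR, adjusted p = 0.893), with a 95% interval from 0.713-fold to 1.69-fold. With SHR replicate 3 left out the sign turned, to -0.27 ± 0.15 (edgeR, adjusted p = 0.444). Leaving out WKY replicate 4 gave 0.15 ± 0.31 (edgeR, adjusted p = 0.856), and over the 15 the adjusted p was 0.444 to 0.985.

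Npy (ENSRNOG00000046449), in contrast, had its high value in a WKY library. It was at 17.1, 18.6, 17.3 and 21.3 CPM in SHR replicates 1 to 4. In WKY replicates 1 to 4 it was at 30.3, 16.5, 17.4 and 15.4 CPM. WKY replicate 1 stood above the other 7 libraries, which lay between 15.4 and 21.3 CPM. The Npy means were 18.6 ± 1.9 CPM in SHR against 19.9 ± 7.0 CPM in WKY (SD, n = 4 each), a log2 fold change of -0.10 ± 0.20 (SE; edgeR, adjusted p = 0.892), with a 95% interval from 0.683-fold to 1.28-fold. Without WKY replicate 1 the sign turned, to 0.18 ± 0.12 (edgeR, adjusted p = 0.684). Leaving out WKY replicate 4 gave -0.20 ± 0.20 (edgeR, adjusted p = 0.670), and leaving out SHR replicate 3 gave -0.06 ± 0.23 (edgeR, adjusted p = 0.938). The adjusted p of Npy was 0.670 to 0.973 over the 15.

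Cck (ENSRNOG00000019321) was lower in 3 of the 4 SHR libraries than in any WKY library. It was at 127, 91.9, 196 and 99.3 CPM in SHR replicates 1 to 4. Across WKY replicates 1 to 4 it was at 170, 152, 159 and 136 CPM. SHR replicate 3 was the highest of all 8 libraries and the other 3 SHR libraries were the 3 lowest. The Cck means were 128 ± 47 CPM in SHR against 154 ± 14 CPM in WKY (SD, n = 4 each), a log2 fold change of -0.26 ± 0.21 (SE; edgeR, adjusted p = 0.651), with a 95% interval from 0.605-fold to 1.147-fold. Without SHR replicate 3 the SHR mean was 106 ± 18 CPM (SD, n = 3) and the fit gave -0.53 ± 0.12, which did not pass over all genes (edgeR, unadjusted p = 0.00184, adjusted p = 0.163; 0 of 7 called, against 0.0352% of all genes). The exact permutation test of log2 CPM for this set gave a two-sided p = 0.0286, the smallest its 35 assignments allow, and over all 8 libraries p = 0.257. SHR replicate 3 was the only SHR library above any WKY library, and it was left out with its values known. Its removal left the strains fully separated, so that low p follows from the choice of library and is no separate support. Leaving out WKY replicate 4 alone gave -0.32 ± 0.22 (edgeR, adjusted p = 0.510), and over the 15 the adjusted p was 0.163 to 0.894.

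With SHR replicate 3 and WKY replicate 4 both left out, Cck was 1.51-fold lower in SHR, a log2 fold change of -0.59 ± 0.12 (SE; edgeR, adjusted p = 0.0249). It was the 1 of 7 genes called in that set of 3 and 3 libraries, where 3.93% of all 16851 genes were called and 1.85% were called as lower in SHR. Both libraries were chosen with their values known, and the call was not made with either of them in the fit. The cause of the high Cck in SHR replicate 3 was not tested.

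Pvalb (ENSRNOG00000006471) gave the lowest unadjusted p of the 7 over all 8 libraries. It was at 30.9, 32.6, 36.6 and 30.3 CPM in SHR replicates 1 to 4. In WKY replicates 1 to 4 it was at 39.3, 38.3, 45.8 and 33.6 CPM. SHR replicates 1, 2 and 4 lay below every WKY library, and SHR replicate 3 lay above WKY replicate 4 only. The Pvalb means were 32.6 ± 2.9 CPM in SHR against 39.2 ± 5.0 CPM in WKY (SD, n = 4 each), a log2 fold change of -0.27 ± 0.11 (SE). Its 95% interval, 0.702-fold to 0.984-fold, lay below 1 but is not adjusted for the number of genes tested. The difference did not pass the adjusted threshold (edgeR, unadjusted p = 0.0345, adjusted p = 0.377). The exact permutation test of log2 CPM gave p = 0.0571, two-sided, where 0.0286 is the smallest possible.

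The Pvalb value kept its sign under all 15 other settings and library sets, between -0.33 and -0.18, with an adjusted p of 0.132 to 0.636. Without WKY replicate 4 the ranges no longer overlapped (1 of 7 genes, against 17.2% of all genes), and the fit gave -0.33 ± 0.10 (edgeR, adjusted p = 0.132). For that set the adjusted p of Pvalb was 0.0589 with DESeq2 and 0.130 with limma-voom, and neither passed. With SHR replicate 3 left out, Pvalb and Cck had ranges that did not overlap (2 of 7, against 13.4% of all genes). For Pvalb the fit of that set gave -0.32 ± 0.11 (edgeR, adjusted p = 0.269), and the exact permutation test gave p = 0.0571. Without both libraries the Pvalb log2 fold change was -0.39 ± 0.10 (edgeR, adjusted p = 0.0635), and again Pvalb and Cck did not overlap (2 of 7, against 25.8%).

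**Figure D2:**
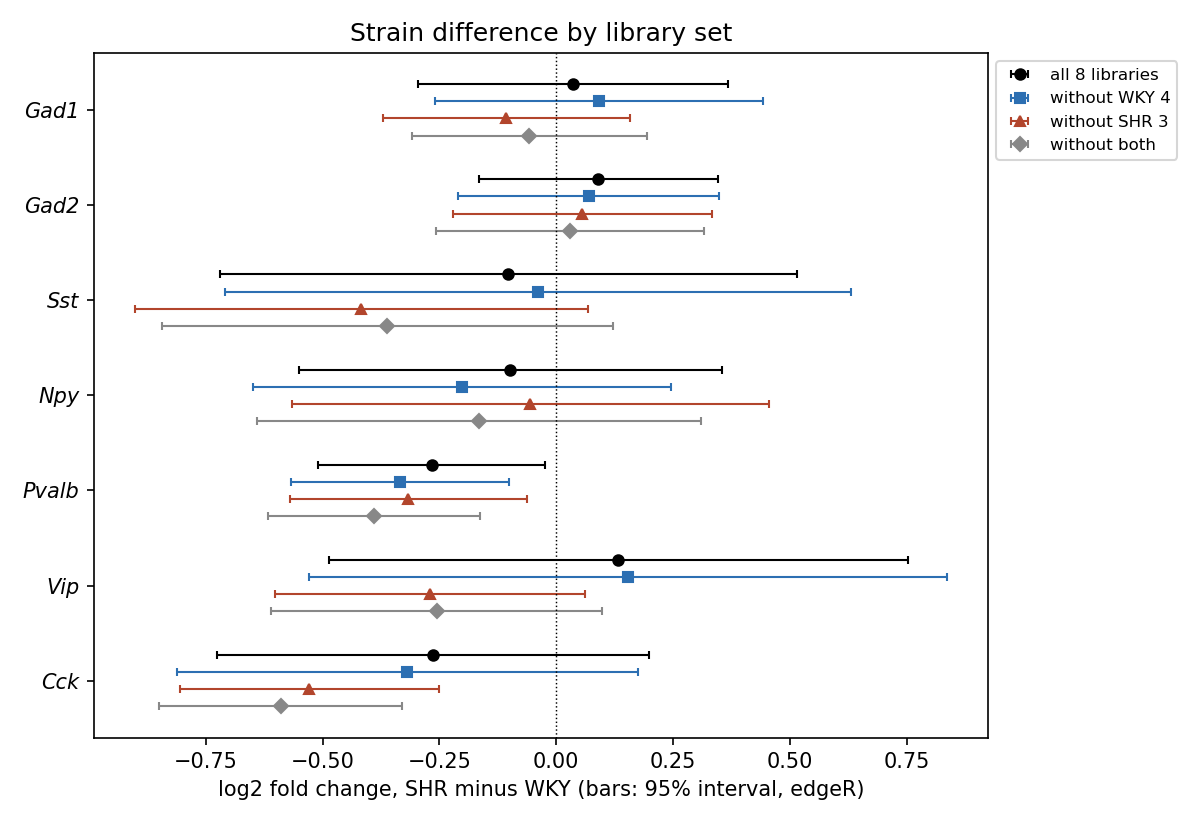
Log2 fold change, SHR minus WKY (horizontal axis), of each gene with its 95% interval from edgeR, for all 8 libraries (black), without WKY replicate 4 (blue), without SHR replicate 3 (red) and without both (grey). The Pvalb estimates lie below 0 in all 4 sets, Vip and Gad1 change sign when SHR replicate 3 is left out, and Cck moves from -0.26 to -0.59.

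The level in SHR replicate 3 stood apart from the other SHR libraries to unequal degrees. Relative to the mean of the other 3 SHR libraries, its level was 2.33 times as high for Vip, 2.02 for Sst, 1.84 for Cck, 1.45 for Gad1, 1.17 for Pvalb, 1.13 for Gad2 and 0.913 for Npy. Thus 3 of 7 reached 1.5 times, and 7.46% of all tested genes did. SHR replicate 3 was the highest of the 8 libraries at 5 of 7, against 16.4% of all genes. SHR replicate 4 was the lowest library at 4 of 7, against 10.6% of all genes. SHR replicate 3 was singled out with these values seen, and the 7 genes were measured in the same libraries. These shares therefore describe the libraries and test nothing about the 7 genes. SHR replicates 2 and 4 both lay below the gene's mean over the 8 libraries for Sst, Vip and Cck, and by less for Gad1 (-0.13 and -0.24 on the log2 scale) and Pvalb (-0.13 and -0.23). Those were also the closest pair of libraries of one strain by chi-square distance between count profiles (15.5 per degree of freedom, against 34.7 to 111 for the other pairs). The source of these differences between libraries was not tested.

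**Figure D3:**
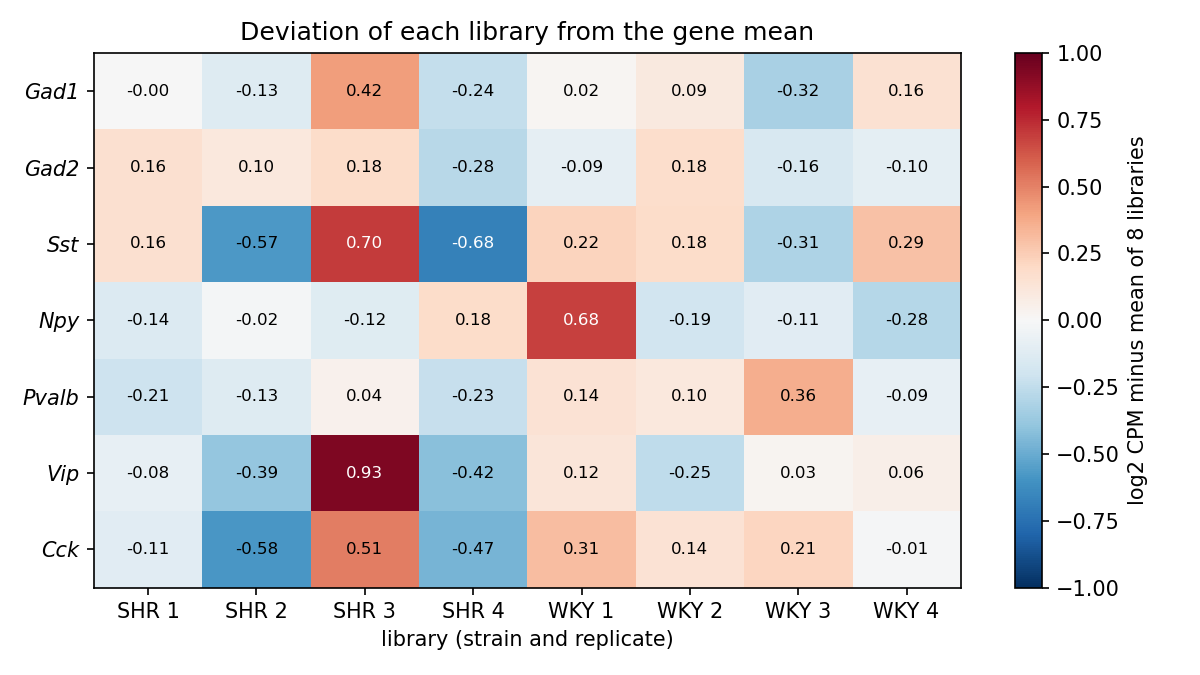
Log2 CPM of each gene (rows) in each library (columns) minus that gene's mean over the 8 libraries, as colour and number. SHR replicate 3 reaches 0.93 for Vip and 0.70 for Sst, and SHR replicates 2 and 4 are both below 0 for Gad1, Sst, Pvalb, Vip and Cck.

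The spread over the 4 SHR libraries placed Sst, Vip and Cck high among all genes. The SD of log2 CPM over the SHR libraries was 0.65 for Sst, larger than in 98.2% of the 13356 genes with a mean log2 CPM of at least 1. It was 0.63 for Vip (larger than in 97.9%) and 0.49 for Cck (95.3%), while the median gene had 0.17. For Npy and Pvalb it was 0.15 and 0.12, below that median. Without SHR replicate 3, Npy was above the median of 0.13, at 0.16 (larger than in 61.0% of genes), and Pvalb below it, at 0.055 (13.7%). Over the WKY libraries Npy had the largest spread of the 7, 0.45 (larger than in 92.2%), and Vip and Cck were near the median of 0.16, at 0.17 and 0.13. Without SHR replicate 3 the SHR SD was 0.46 for Sst (larger than in 96.3% of genes), 0.19 for Vip (67.9%) and 0.24 for Cck (80.5%), against a median of 0.13, and the coefficient of variation of CPM went from 50.5 to 13.3% for Vip and from 36.8 to 17.4% for Cck. Without WKY replicate 4 the WKY SD was 0.48 for Npy (larger than in 96.5%), 0.20 for Vip (71.1%) and 0.08 for Cck (26.1%), against a median of 0.13.

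Library by library, Sst followed Gad1 most closely of the 21 pairs of genes. Over the 8 libraries Pearson's r of log2 CPM was 0.89 and Spearman's rho 0.90 (exact permutation p = 0.00300 and 0.00456; Benjamini-Hochberg adjusted over the 21 pairs, 0.0516 and 0.0750). Vip and Cck had r = 0.81 and rho = 0.86 (exact permutation p = 0.00682 and 0.0107, adjusted 0.0516 and 0.0750). Sst and Vip had r = 0.80 and rho = 0.88 (exact permutation p = 0.00737 and 0.00724, adjusted 0.0516 and 0.0750). Sst and Cck had r = 0.82 and rho = 0.74 (exact permutation p = 0.0160 and 0.0458, adjusted 0.0842 and 0.193). None of the 21 pairs passed the adjusted threshold, and 5 had an unadjusted p under 0.05 for r, the fifth being Gad1 and Vip (r = 0.74, exact permutation p = 0.0389, adjusted 0.163; rho = 0.62, exact permutation p = 0.115, adjusted 0.345). These values share the library scaling and the high SHR replicate 3.

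Leaving out the 2 libraries farthest from the median of the first gene gave r = 0.93 for Gad1 and Sst, 0.75 for Vip and Cck, 0.70 for Sst and Vip and 0.41 for Sst and Cck, each over 6 libraries. For Sst and Cck the libraries left out were SHR replicates 2 and 4, the lowest for Sst, so that their removal also narrows the range of Sst. Without SHR replicate 3 alone, r was 0.83 for Gad1 and Sst, 0.82 for Vip and Cck, 0.72 for Sst and Vip and 0.73 for Sst and Cck. In that set r for Gad1 and Vip was 0.31 (exact permutation p = 0.479, adjusted 0.898), and 3 of the 21 pairs had an unadjusted p under 0.05 (Gad1 and Sst, Vip and Cck, Pvalb and Cck). Without WKY replicate 4 alone, r was 0.88 for Gad1 and Sst, 0.81 for Vip and Cck, 0.81 for Sst and Vip, 0.85 for Sst and Cck and 0.75 for Gad1 and Vip, and 4 pairs had an unadjusted p under 0.05. No pair passed the adjusted threshold in either set. Subtracting each strain's mean gave r = 0.93 for Gad1 and Sst (exact permutation within strains, p = 0.00347, adjusted 0.0729). For Vip and Cck it also gave r = 0.93 (exact permutation within strains, p = 0.0313, adjusted 0.219). Again 0 of the 21 pairs passed the adjusted threshold, and SHR replicate 3 was still among the libraries. Gad1 and Gad2, which make the same transmitter, had r = 0.62 and rho = 0.67 (exact permutation p = 0.106 and 0.0831, adjusted 0.319 and 0.291), and r = 0.39 without the 2 farthest libraries. Npy had r between -0.37 and 0.11 with the other 6 genes.

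**Figure D4:**
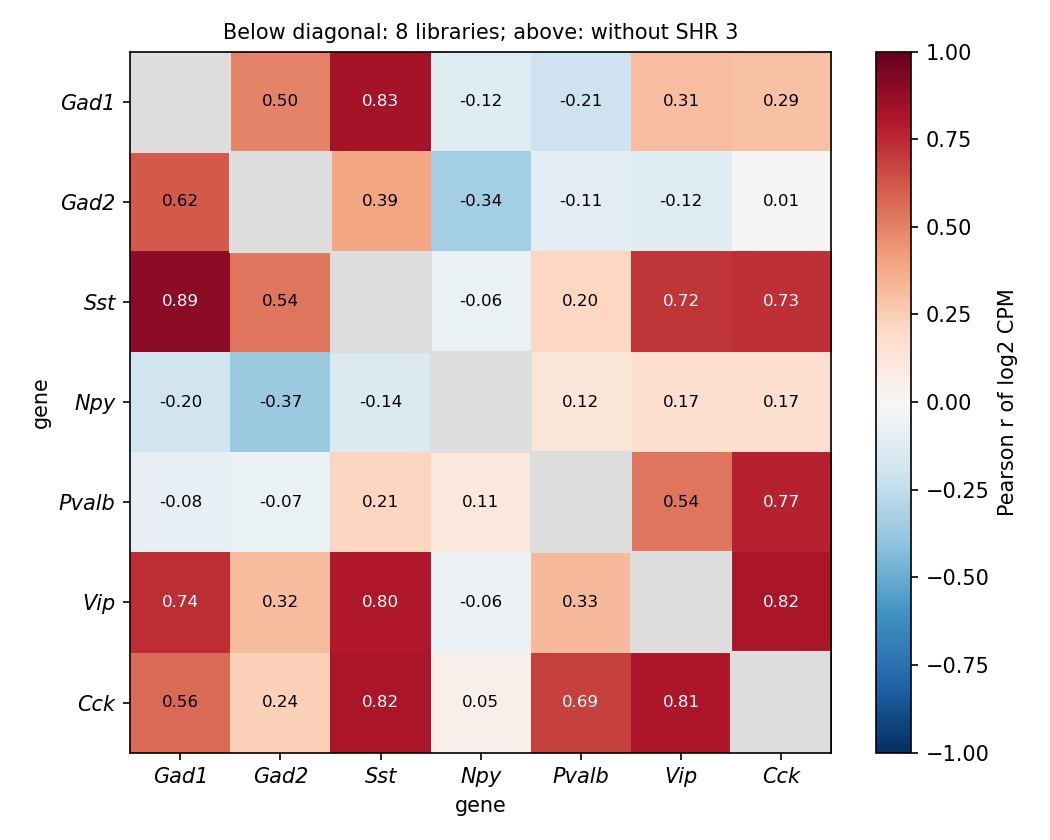
Pearson's r of log2 CPM between each pair of the 7 genes, over all 8 libraries below the diagonal and without SHR replicate 3 above it. Gad1 with Sst (0.89 and 0.83) and Vip with Cck (0.81 and 0.82) are high on both sides, and Npy is near 0 or negative with Gad1, Gad2 and Sst.

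Counts were also expressed relative to the summed Gad1 and Gad2 counts of the same library, which removes library scaling. These are count percentages, not corrected for transcript length, so they compare libraries and not genes. Cck stood at 30.7, 23.7, 40.04 and 30.2% in SHR replicates 1 to 4. Across WKY replicates 1 to 4 Cck stood at 44.1, 35.2, 48.1 and 33.6%. The Cck means were 31.2 ± 6.7% in SHR against 40.2 ± 7.0% in WKY (SD, n = 4 each). The SHR libraries other than replicate 3 lay below every WKY library. This held with Gad2 alone as the denominator but not with Gad1 alone. Relative to Gad1, Cck was at 60.0% in SHR replicate 1 and 57.6% in WKY replicate 4.

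Relative to the same sum, Pvalb stood at 7.47, 8.40, 7.50 and 9.21% in SHR replicates 1 to 4. In WKY replicates 1 to 4 it stood at 10.2, 8.88, 13.8 and 8.30%. On this scale the strains overlapped, with means of 8.15 ± 0.83% in SHR against 10.3 ± 2.5% in WKY, and SHR replicate 3 was not high. Sst averaged 11.6 ± 3.6% in SHR (8.31 to 16.0%) and 13.4 ± 1.4% in WKY (11.7 to 14.6%). Vip averaged 2.86 ± 0.96% in SHR against 2.85 ± 0.53% in WKY, and SHR replicate 3 was still the highest at 4.28%. Npy averaged 4.74 ± 1.27% in SHR against 5.18 ± 1.899% in WKY, with SHR replicate 3 the lowest library at 3.55%. Without SHR replicate 3 the SHR mean (SD, n = 3) was 28.2 ± 3.9% for Cck, 10.1 ± 2.5% for Sst, 8.36 ± 0.87% for Pvalb, 2.39 ± 0.199% for Vip and 5.13 ± 1.21% for Npy. Without WKY replicate 4 the WKY mean was 42.4 ± 6.6% for Cck, 12.98 ± 1.44% for Sst, 10.97 ± 2.55% for Pvalb, 2.87 ± 0.65% for Vip and 5.64 ± 2.04% for Npy. The difference in mean log2 ratio, SHR minus WKY, went from -0.03 to -0.24 for Vip and from -0.10 to 0.03 for Npy without SHR replicate 3, and was 0.12 for Npy without WKY replicate 1.

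The balance of the decarboxylase transcripts varied between libraries, and the strains overlapped. Gad1 counts were 105, 100, 138 and 121% of Gad2 counts in SHR replicates 1 to 4. Across WKY replicates 1 to 4 they were 127, 111, 105 and 140%. SHR replicate 3 and WKY replicate 4 were the highest of their strains, and the means were 116 ± 17% in SHR against 121 ± 16% in WKY (SD, n = 4 each). The strains were not compared by a test on these ratios.

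**Figure D5:**
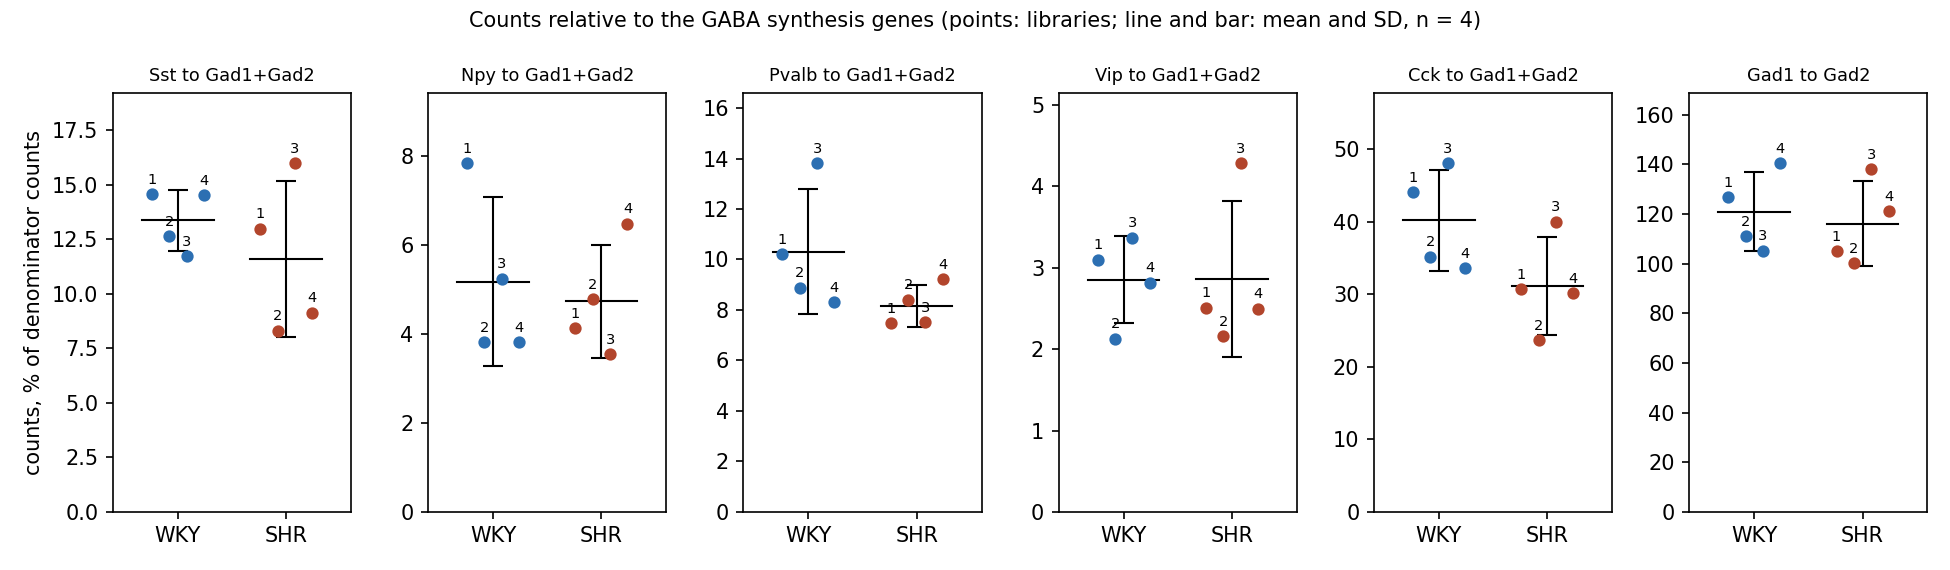
Counts of each peptide gene and of Pvalb as a percentage of summed Gad1 and Gad2 counts, and of Gad1 as a percentage of Gad2 (vertical axes, from 0), in the WKY (blue) and SHR (red) libraries, with mean and SD of 4. The strains overlap in all 6 panels, and Vip in SHR replicate 3 (4.28%) is the highest value of its panel.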

How the data were processed

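Gene-level read counts, not normalized, were deposited by the authors in 1 matrix covering 8 libraries and in 8 single-library tables. All 8 tables held the same counts as the matrix, and 4 carried another number in the header than the sample title. The titles were used. The tools named per the submitters' processing notes are StringTie 1.3.4d, HISAT2 2.0.4 and cutadapt 1.9, with build rn6. The strand setting is not given in the sources used here, so reads shared with overlapping or antisense genes could not be assessed.

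All genes were fitted with edgeR 4.0.16 (R 4.3.3): TMM scaling, filterByExpr, strain as the only term, quasi-likelihood F test, Benjamini-Hochberg adjustment over all genes tested, called at an adjusted p under 0.05. Log2 CPM carried a prior count of 2. The standard error is the log2 fold change divided by the square root of F. CPM given without a library keeps the scaling of all 8. The test was checked on simulated data. No library was simulated to stand apart, so that check does not cover libraries such as SHR replicate 3 or WKY replicate 4. Single genes and correlations were tested by exact permutation, two-sided. The chi-square between libraries took genes whose counts summed to 40 or more, and no pair was treated as a duplicate. Alternatives were RLE scaling, DESeq2 1.42.0, no filter, robust empirical Bayes, limma-voom (limma 3.58.1), a filter of at least 1 CPM in 4 libraries, a replicate block and each library left out. Leaving out SHR replicate 3 and WKY replicate 4 together, and the alternatives of the fit without WKY replicate 4, came after the data had been seen. The 7 genes and all lists were chosen with earlier results of these data known. The rule was to name all 7 genes, then genes of GABA, receptor, interneuron and cell-type lists. Those lists could not be matched to identifiers and were not tested, so likeness is given only among the 7.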

Additional observations from a re-analysis of the deposited data

Results flagged for a closer look

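In each strain, 7 genes and 6 count ratios were screened for 1 library lying far from the remaining 3. Of these 26 sets, 3 held such a library. Chance picks about 1 in 20 sets, and these sets share libraries and genes. Npy in WKY replicate 1 was at 30.3 CPM, against 15.4 to 17.4 CPM in the other WKY libraries. Vip in SHR replicate 3 was at 20.9 CPM, against 8.21 to 10.4 CPM in the other SHR libraries. The Vip count of the same library was also apart as a percentage of summed Gad1 and Gad2 counts, at 4.28% against 2.16 to 2.51%.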

How the results depend on the processing

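None of the 7 genes was called in any of the 15 other settings and library sets, and 49 of 49 fold changes refitted on all 8 libraries kept their sign and side of the threshold. Leaving out 1 library gave log2 fold changes from -0.11 to 0.12 for Gad1, 0.05 to 0.19 for Gad2, -0.42 to 0.070 for Sst, -0.20 to 0.18 for Npy, -0.33 to -0.18 for Pvalb, -0.27 to 0.28 for Vip and -0.53 to -0.13 for Cck. Gad1 changed sign without SHR replicate 3 (-0.11) or WKY replicate 3 (-0.054), Sst without SHR replicate 2 (0.057) or SHR replicate 4 (0.070), Npy without WKY replicate 1 (0.18) and Vip without SHR replicate 3 (-0.27). Without SHR replicate 3 and WKY replicate 4 together, 662 genes and 1 of the 7 were called, with log2 fold changes of -0.057 for Gad1, -0.26 for Vip and -0.59 for Cck. In the fit without WKY replicate 4, DESeq2 and limma-voom called 0 of the 7, against 1216 and 436 of all 17029 genes. Leaving out 1 more library called 0 to 1 of the 7, against 127 of 17354 to 662 of 16851 genes. Over all genes, 6 were called, 3 with no filter, 334 with DESeq2 and 1 to 458 leaving out 1 library. The cause was not tested. In all 50 alternatives of the 5 ratios the difference moved by less than 1 SD between libraries, taking the strain with the larger SD. Leaving out 1 of 4 libraries cannot move a mean by that much, so for those sets this says nothing about robustness. The other alternatives used Gad1 or Gad2 alone as the denominator. Each of these shifts the difference of all 5 ratios by the same amount, so they are no separate check of each ratio. Leaving out 1 library, an alternative chosen after seeing the data, changed the sign of the Npy and Vip ratios. The log2 difference ranged from -0.26 to 0.12 for Npy (above 0 without SHR replicate 3 or WKY replicate 1) and from -0.24 to 0.09 for Vip (above 0 without SHR replicate 1, 2 or 4 or WKY replicate 1 or 3). It ranged from -0.42 to -0.10 for Sst, -0.41 to -0.16 for Pvalb and -0.51 to -0.25 for Cck.

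Same-numbered libraries did not deviate together (r from -0.16 to -0.003), and 0 of 4 correlated best with their own number. The numbers in the titles thus gave no sign of pairing. Other numbers stood in the headers of 4 of the 8 single-library tables, and pairing by those was not checked. The best matches were weak too (r from 0.07 to 0.15), so this check cannot exclude pairing. The replicate block gave 1 called gene and 0 of the 7, and log2 fold changes of 0.02 for Gad1, 0.08 for Gad2, -0.20 for Sst, -0.05 for Npy, -0.26 for Pvalb, 0.02 for Vip and -0.33 for Cck.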
